A study of Mus musculus with 27 samples.

Results

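The genes described here are 8 genes of lipid uptake, lipid storage and the foamy state of macrophages: Fabp5, Fabp3, Fabp4, Lpl, Plin2, Cd36, Gpnmb and Msr1. They were chosen by symbol, through the Ensembl identifiers that mouse GENCODE gives them, and are 8 of the 56691 gene rows of the count table. The libraries come from microglia sorted by flow cytometry from brain tissue around the hematoma of wild-type mice, 27 in all, in 9 groups of 3. Mice given an antibiotic cocktail (ABX), germ-free (GF) mice and specific pathogen-free (SPF) mice, which had no such treatment, each gave a group at day 3 after collagenase and a group at day 7 after collagenase, an enzyme that causes intracerebral hemorrhage (ICH). Each of the 3 conditions also has a sham group given PBS, labelled day 7, so a difference between day 3 and sham includes a difference in day. The labels name no strain, sex or age and do not say whether libraries of a group came from separate animals, so p-values measure the spread between these libraries, which may be technical.

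As background, a macrophage that takes up more lipid than it can burn or export stores it in droplets and is then called foamy. Scavenger receptors bring in lipoproteins and cell debris, lipoprotein lipase frees fatty acids from triglyceride, small binding proteins carry the fatty acids through the cytosol, and perilipins coat the droplets. Microglia that clear myelin and dead cells after brain injury are known for the same programme, in which the nuclear receptors of the PPAR family and transcription factors of the MITF family take part.

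Regulatory sequence is shown for the lipid droplet gene Plin2, the scavenger receptor gene Cd36 and the lysosomal gene Gpnmb, since Plin2 and Cd36 are textbook targets of PPAR and Gpnmb of MITF. The windows are the 250 bases before the annotated start in RefSeq on GRCm38.p6, which matched 4 of the 8 genes, on the strand of the gene. Capitals mark AGGTCA, the single site that nuclear receptors bind, searched on both strands and here read on the other strand as TGACCT.
Plin2, chr4:86670060-86670309, minus strand: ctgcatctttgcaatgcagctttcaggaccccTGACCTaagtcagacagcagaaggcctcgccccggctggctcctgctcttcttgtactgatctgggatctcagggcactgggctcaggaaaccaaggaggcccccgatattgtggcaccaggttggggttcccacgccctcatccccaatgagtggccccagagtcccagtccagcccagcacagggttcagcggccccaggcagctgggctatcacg
Cd36, chr5:17835897-17836146, minus strand: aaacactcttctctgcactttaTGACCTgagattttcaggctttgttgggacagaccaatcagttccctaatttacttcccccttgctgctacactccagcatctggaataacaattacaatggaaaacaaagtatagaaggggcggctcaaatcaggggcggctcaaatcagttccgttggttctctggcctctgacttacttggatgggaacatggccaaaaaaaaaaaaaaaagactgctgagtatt
Gpnmb, chr6:49036268-49036517, plus strand: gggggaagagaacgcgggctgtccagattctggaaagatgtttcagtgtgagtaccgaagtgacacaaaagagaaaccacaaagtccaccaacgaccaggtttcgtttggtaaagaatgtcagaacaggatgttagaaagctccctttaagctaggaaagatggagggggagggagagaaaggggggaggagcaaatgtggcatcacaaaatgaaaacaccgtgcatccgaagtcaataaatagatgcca
This site lies 218 bases before the start of Plin2 and 228 bases before the RefSeq start of Cd36 used here. That Cd36 start is internal to the gene in GENCODE, since the window lies within its span of chr5:17781690-17888801. Which start of Cd36 is used in these libraries was not tested. The single site is held by 14.0% of 32851 such windows over the annotation. The full PPAR element searched, a direct repeat of AGGTCA with any 1 base between (on both strands, and overlapping the single site), is in none of the 3 windows shown and is held by 0.0335% of windows. The MITF boxes CACGTG and CATGTG, held by 6.02% and 12.3% of windows, were searched on both strands and are not among the letters of the Gpnmb window. The window of Fabp3, not printed, holds CATGTG 45 bases before the start.

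Libraries held 41664864 to 79090595 counts, and 9185 to 18408 genes had a count. Fewer than 12000 were detected in 7 libraries, namely all 3 GF libraries of ICH day 7 and the first and second replicate both of GF sham and of ABX ICH day 7. Transcripts rich in GC were also scarce in some of them. Over 1649 abundant genes, the median centred log2 level of the fifth of genes highest in GC minus that of the fifth lowest averaged −2.13 ± 0.59 for GF mice with ICH at day 7, against 0.76 ± 0.39 for GF sham (SD, n = 3 each). For ABX mice it averaged −0.79 ± 0.20 with ICH at day 7, against 0.17 ± 0.15 for sham (SD, n = 3 each). Mitochondrial genes took 3.69% to 6.45% of counts in GF ICH at day 7, against 1.17% to 1.48% in GF sham, and 1.95% to 3.52% in ABX ICH at day 7, against 1.01% to 1.54% in ABX sham. Summed levels of 11 microglia markers were 21698 to 120243 CPM, counts scaled to library size, over all libraries, and all 11 were detected in every group. Levels below are CPM scaled by TMM, and fold changes are log2 values with their SE from the quasi-likelihood fit of edgeR, tested over 17573 genes. In sorted bulk RNA, fewer cells of a type and less RNA per cell cannot be told apart.

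Fabp5 was the gene most often called higher after ICH, followed by Gpnmb, Msr1 and Cd36. Plin2, Lpl and Fabp3 were called in none of the comparisons within a condition. Called means an edgeR adjusted p under 0.05, which differs from separation of the libraries. ICH libraries of Plin2 lay above all their shams in every comparison except GF mice at day 7. The calls of Gpnmb and Cd36 came from groups that overlapped sham. Over the 6 comparisons of ICH with sham, 7 of the 8 genes were tested and 9 of 42 gene comparisons were called, all higher after ICH. Fabp5 accounts for 4 of them, Gpnmb and Msr1 for 2 each and Cd36 for 1. With the compared groups fitted alone, without the spread shared over all 9 groups, 0 of these 9 calls were kept, limma voom kept 5 and DESeq2 9. Fabp4 failed the filter on low counts.

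At day 3, ICH libraries of 6 genes lay above all sham libraries in ABX mice and in SPF mice, and of 5 genes in GF mice. Such a lack of overlap was seen for 9.74% of tested genes in ABX mice, 9.18% in SPF mice and 10.8% in GF mice. Calls were 1 of 7 in SPF mice, Fabp5, where 0.091% of genes were called higher. No gene was called in ABX mice, where 0.102% were called higher, nor in GF mice, where 0.00569% were. At an unadjusted edgeR p under 0.05 the counts were 6 of 7 in ABX, 5 in GF and 6 in SPF mice, with 3.65%, 2.32% and 3.53% of all genes higher by that rule. DESeq2 called 4 in ABX, 4 in GF and 5 in SPF mice, and limma voom 5 in ABX, 0 in GF and 4 in SPF mice. Shares of all genes called by DESeq2 and limma voom are not given here or below, so their counts lack a background.

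At day 7, ICH libraries of 6 genes lay above all SPF sham libraries, where 5.94% of genes did so, but of only 2 genes in ABX mice and 2 in GF mice, where 7.8% and 5.34% did. Calls were Fabp5, Gpnmb and Msr1 in ABX mice, with 0.734% of genes called higher, the same 3 and Cd36 in GF mice, with 1.7% called higher, and Fabp5 in SPF mice, with 0.0797% called higher. Unadjusted edgeR p-values under 0.05 numbered 6 of 7 in ABX, 5 in GF and 6 in SPF mice, with 6.6%, 5.53% and 3.02% of all genes higher by that rule. Medians over the 7 genes of the log2 fold change were 5.42 in ABX, 6.02 in GF and 5.02 in SPF mice at day 7, beside −0.79, −2.10 and −0.03 over all tested genes. Scaling by DESeq2 size factors moved those all-gene medians by −0.40, −0.53 and −0.12, and that of GF mice at day 3 by −0.13.

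**Figure D1:**
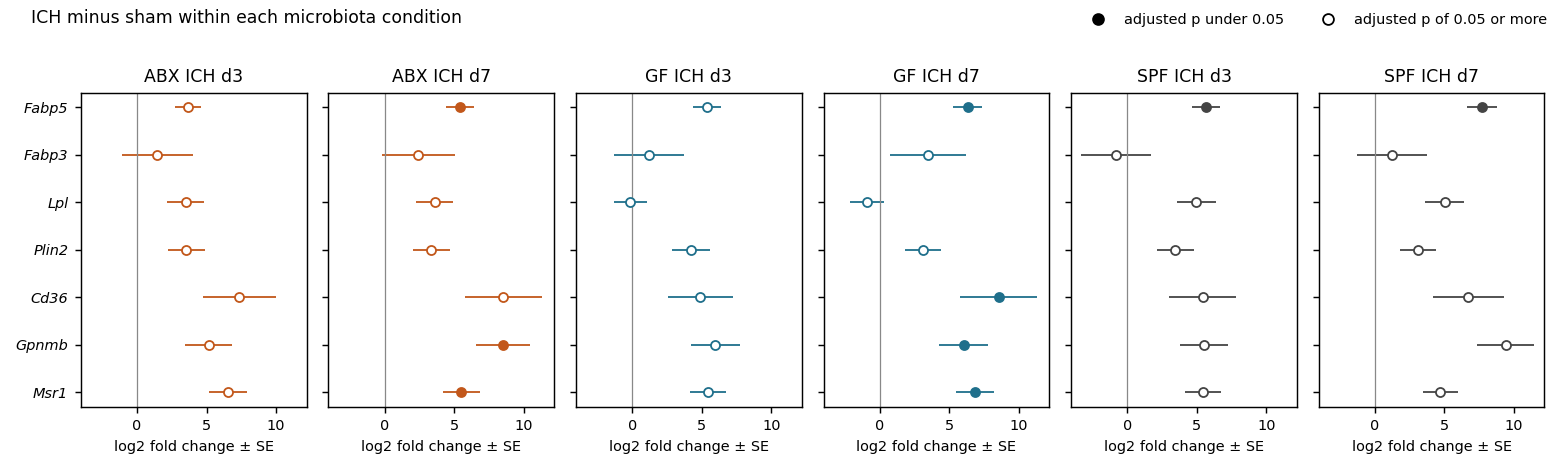
Log2 fold change of ICH over sham (x axis, bars ± SE of the edgeR fit) for the 7 tested genes in each microbiota condition and day. Filled points have an adjusted p under 0.05. Fabp5 is at 3.66 to 7.71 in all 6 panels, Fabp3 has the widest bars beside Cd36, and Lpl is at −0.14 and −0.91 in GF mice.

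Averaging over the 3 conditions, a comparison added after the data had been seen, gave more precise values. At day 3, 5 of 7 genes were higher than in sham, with 1.04% of genes called higher: Fabp5 by 4.90 ± 0.56 (edgeR adjusted p = 9.62e-06), Msr1 by 5.80 ± 0.76 (6.36e-05), Gpnmb by 5.54 ± 1.00 (0.00328), Plin2 by 3.73 ± 0.77 (0.0126) and Cd36 by 5.89 ± 1.42 (0.0369). The Cd36 call is the weakest of these and was kept in 11 of 27 fits that left out 1 library, with adjusted p up to 0.115. Lpl was at 2.77 ± 0.73 (edgeR adjusted p = 0.0615), and at 4.43 (0.00032) without GF sham replicate 1. At day 7, 6 of 7 genes were higher, with 3.72% of genes called higher: Fabp5 by 6.49 ± 0.60 (edgeR adjusted p = 1.85e-07), Gpnmb by 7.98 ± 1.11 (6.1e-05), Msr1 by 5.68 ± 0.76 (3.66e-05), Cd36 by 7.93 ± 1.56 (0.00179), Plin2 by 3.19 ± 0.75 (0.00677) and Lpl by 2.57 ± 0.73 (0.0189). Single libraries decide some of these: Plin2 was at 0.82 (edgeR adjusted p = 0.14) without GF ICH day 7 replicate 1 and Lpl at 1.96 (0.0603) without ABX ICH day 7 replicate 1, while Fabp3, at 2.38 (0.272), was at 6.34 (0.0367) without GF sham replicate 3. Over ABX and SPF mice alone, Fabp5, Lpl, Gpnmb and Msr1 were called at day 7, Lpl in 18 of 27 fits that left out 1 library, with 0.671% of genes called higher, and Plin2 (3.24 ± 0.93, edgeR adjusted p = 0.118) and Cd36 (7.63 ± 1.89, 0.0612) were not.

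**Figure D2:**
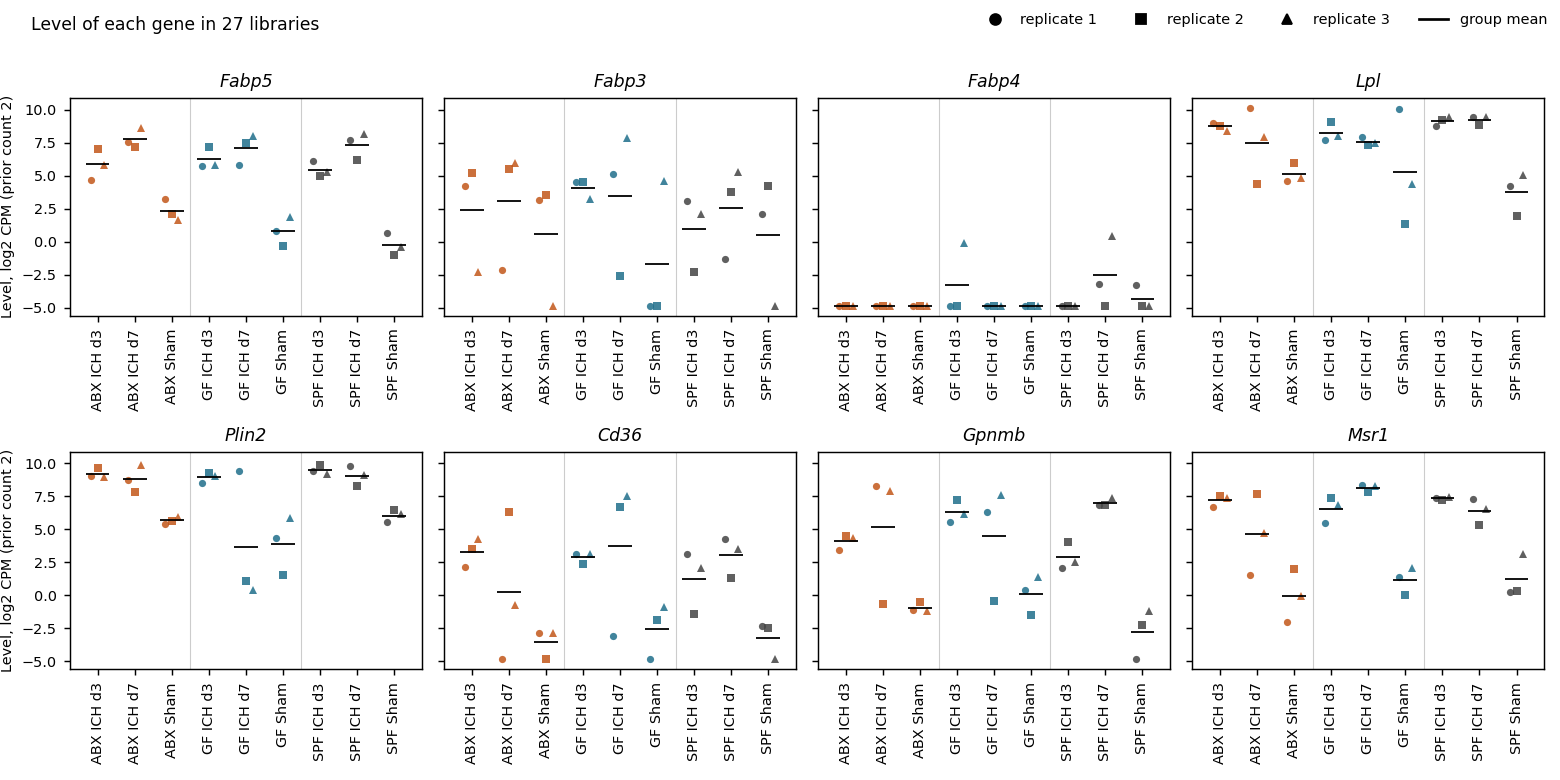
Level of each of the 8 genes (y axis, log2 CPM with a prior count of 2) in the 27 libraries by group, with 1 point per library and a line at the group mean. Colours are ABX, GF and SPF, and marker shapes are replicates. Fabp5, Msr1 and Plin2 sit apart from sham in most ICH libraries, while Plin2, Cd36 and Gpnmb split within the ICH day 7 groups of ABX or GF mice.

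The order of the genes by level differed between ICH and sham. Levels between genes are compared here per kilobase of the longest coding transcript. In SPF ICH at day 7, Plin2 led with 313 CPM per kb, followed by Fabp5 with 191 and Lpl with 148, then Gpnmb with 35.6, Msr1 with 26.4, Fabp3 with 21.7, Cd36 with 3.26 and Fabp4 with 0.527. In SPF sham, Plin2 led with 36.2 CPM per kb, ahead of Fabp3 with 9.23, Lpl with 4.57, Msr1 with 1.02, Fabp5 with 0.910, and Gpnmb, Cd36 and Fabp4 each under 0.06. In SPF ICH at day 3, Plin2 led with 393 CPM per kb, ahead of Lpl with 141 and Fabp5 with 47.0. In GF ICH at day 7 Fabp5 led with 169.7 ± 107.2, ahead of Plin2 with 122 ± 211 and Fabp3 with 111 ± 157 (SD). That Plin2 average rests on replicate 1, at 690 CPM against 2.05 and 1.28 CPM. The spread within a group is large: Plin2, Fabp5 and Lpl overlap in their libraries of SPF ICH day 7, as do Gpnmb, Msr1 and Fabp3, and in SPF sham Fabp5 and Msr1 overlap.

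Fabp5 (ENSMUSG00000027533), on chr3:10012548-10016607 of GRCm38, encodes the epidermal fatty acid binding protein, a cytosolic carrier that is also found in macrophages. Its level was 25.9, 133 and 56.9 CPM in ABX ICH at day 3 and 193, 143 and 397 CPM in ABX ICH at day 7, against 9.59, 4.34 and 3.14 CPM in ABX sham. All ICH libraries lay above all shams. The log2 fold change was 3.66 ± 0.91 at day 3 (edgeR adjusted p = 0.214) and 5.42 ± 0.99 at day 7 (0.00591).

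In GF mice, Fabp5 was at 53.5, 145 and 57.5 CPM in ICH at day 3 and at 55.5, 181 and 266 CPM in ICH at day 7, against 1.73, 0.784 and 3.67 CPM in sham. ICH libraries were again all above the shams. Fold changes on the log2 scale were 5.36 ± 0.99 at day 3 (edgeR adjusted p = 0.102) and 6.34 ± 1.04 at day 7 (0.000442).

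In SPF mice, Fabp5 was at 68.4, 31.0 and 39.7 CPM in ICH at day 3 and at 205, 72.2 and 288 CPM in ICH at day 7, against 1.51, 0.475 and 0.715 CPM in sham. Both ICH groups lay apart from sham, and day 7 lay above day 3. The log2 fold change was 5.68 ± 1.01 at day 3 (edgeR adjusted p = 0.0125) and 7.71 ± 1.10 at day 7 (0.0013). Fabp5 was called at day 7 in GF and SPF mice in all 27 fits that left out 1 library, in ABX mice in 25, and at day 3 in SPF mice in 23. With the compared groups fitted alone none of the 4 was called (edgeR adjusted p = 0.0848 in SPF mice at day 3, and 0.205, 0.284 and 0.072 in ABX, GF and SPF mice at day 7), and limma voom did not call that of GF mice (0.0653). The SPF day 3 call was lost without ICH replicate 1 (edgeR adjusted p = 0.0508) or without sham replicate 1, 2 or 3 (0.0684, 0.187 and 0.192), and the ABX day 7 call without ABX sham replicate 2 or 3 (0.0597 and 0.0797). Without GF sham replicate 3 the GF day 3 value was 6.08 and was called (0.0222).

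Reads of Fabp5 may be shared with processed pseudogenes, of which 5 match its transcript at 93.6% identity or more. The one with most counts, Gm6166, is 98.3% identical over 409 bases and holds 839 counts in all, 0.659% of the 127357 counts of Fabp5. That share is over all libraries, in which ICH dominates. Another copy, Fabp5l2, reached 1.64 CPM and exceeded Fabp5 in 1 library, so low Fabp5 levels in sham are the less certain ones. Adding the near copies to their genes left the number of called gene comparisons at 9.

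Fabp3 (ENSMUSG00000028773), on chr4:130308595-130315463, encodes the heart type fatty acid binding protein. It was at 18.998, 36.6 and 0.173 CPM in ABX ICH at day 3 and 0.190, 45.4 and 63.7 CPM in ABX ICH at day 7, against 8.76, 11.5 and 0 CPM in ABX sham. In GF mice it was at 22.8, 23.6 and 9.19 CPM in ICH at day 3 and 34.5, 0.132 and 238 CPM in ICH at day 7, against 0, 0 and 24.4 CPM in sham. In SPF mice it was at 8.66, 0.168 and 4.36 CPM in ICH at day 3 and 0.361, 13.4 and 39.8 CPM in ICH at day 7, against 4.24, 18.6 and 0 CPM in sham. Only GF ICH at day 3 had no library near 0, and ICH overlapped sham in all 6 comparisons.

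Fabp3 was not called in any comparison. Its log2 fold changes of ICH over sham were between −0.79 ± 2.51 in SPF mice at day 3 and 3.48 ± 2.75 in GF mice at day 7 (edgeR adjusted p = 1 and 0.352). Its exons overlap those of Zcchc17, a gene of 156440 counts on the other strand, and the strand setting of the counting is not given in the sources used here, so reads of the pair may not be separated. Fabp4 (ENSMUSG00000062515), on chr3:10204088-10208576, the adipocyte binding protein that also marks foamy macrophages, had 141 counts in 4 of 27 libraries. They were 50 counts in GF ICH day 3 replicate 3, 82 and 4 counts in SPF ICH day 7 replicates 3 and 1, and 5 counts in SPF sham replicate 1. Fabp4 was therefore present at 1.34 CPM at most and could not be tested.

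Lpl (ENSMUSG00000015568), on chr8:68880491-68907448, encodes lipoprotein lipase, which hydrolyses triglyceride in lipoproteins. It was at 434, 594 and 714 CPM in SPF ICH at day 3 and 687, 456 and 688 CPM in SPF ICH at day 7, against 18.6, 3.84 and 33.9 CPM in SPF sham. Every SPF ICH library lay above every SPF sham, by a log2 fold change of 4.95 ± 1.41 at day 3 (edgeR adjusted p = 0.495) and 5.02 ± 1.41 at day 7 (0.651). Neither passed in edgeR, while DESeq2 gave adjusted p of 0.00324 and 0.00413 and limma voom 0.00597 and 0.0128.

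In ABX mice, Lpl was at 517, 448 and 339 CPM in ICH at day 3 and 1139, 20.7 and 242 CPM in ICH at day 7, against 24.0, 64.1 and 28.3 CPM in sham. Day 3 lay above sham, while at day 7 replicate 2 was below all 3 shams. The log2 fold changes were 3.49 ± 1.31 and 3.59 ± 1.32 (edgeR adjusted p = 0.591 and 0.174).

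In GF mice, Lpl was at 205, 531 and 263 CPM in ICH at day 3 and 241, 164 and 180.5 CPM in ICH at day 7, against 1076, 2.48 and 20.5 CPM in sham. A single GF sham library, replicate 1, held more Lpl than any other GF library and was among those of low detection. With it, the log2 fold change was −0.14 ± 1.19 at day 3 and −0.91 ± 1.20 at day 7 (edgeR adjusted p = 1 and 0.598). Without it, Lpl was 4.86 higher at day 3 (edgeR adjusted p = 0.796) and 4.09 higher at day 7 (0.0215).

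Plin2 (ENSMUSG00000028494), on chr4:86648386-86670060, encodes perilipin 2, the droplet coat protein of cells other than adipocytes, and had the most counts of the 8 genes, 593317. It was at 706, 933 and 585 CPM in SPF ICH at day 3 and 915, 311 and 544 CPM in SPF ICH at day 7, against 47.0, 87.4 and 70.5 CPM in SPF sham. In ABX mice it was at 521, 795 and 490.2 CPM in ICH at day 3 and 421, 228 and 949 CPM in ICH at day 7, against 43.0, 50.8 and 60.7 CPM in sham. All ICH libraries of these 4 groups lay above their shams, with log2 fold changes of 3.11 to 3.55, none of them called (edgeR adjusted p = 0.193 to 0.897). Without GF ICH day 7 replicate 1, which enters their common estimate of spread, those of ABX mice were called at day 3 (0.0487) and day 7 (0.0207).

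Plin2 split in GF mice. It was at 360.5, 634 and 520.4 CPM in ICH at day 3 and 690.1, 2.05 and 1.28 CPM in ICH at day 7, against 20.6, 2.83 and 58.3 CPM in sham. Day 3 lay above sham, but at day 7 replicates 2 and 3 lay below every GF sham library. The log2 fold change at day 7 was 3.08 ± 1.302 (edgeR adjusted p = 0.109). Without replicate 1 of GF ICH day 7 it was −4.03 (0.00718), and without replicate 2 or 3 it was 3.67 in both fits (0.0394 and 0.045).

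In the same pair of libraries the lipid scavenger receptor gene Cd36 (ENSMUSG00000002944), on chr5:17781690-17888801, was high. Cd36 was at 8.83, 5.19 and 8.66 CPM in GF ICH at day 3 and 0.0842, 103 and 182 CPM in GF ICH at day 7, against 0, 0.240 and 0.505 CPM in GF sham. Replicates 2 and 3 of day 7, low in Plin2, thus held the most Cd36 of all 27 libraries, and replicate 1, high in Plin2, held almost none. The transcript of Cd36 has 38.4% GC, at percentile 3.65 of tested genes, and that of Plin2 52.1%, at percentile 66.3. The part of GC balance in this split was not tested. Cd36 was called higher than sham at day 7 in GF mice, by 8.54 ± 2.77 (edgeR adjusted p = 0.0402), although its groups overlapped, and in 21 of 27 fits that left out 1 library, with edgeR adjusted p up to 0.099.

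In ABX mice, Cd36 was at 4.40, 11.4 and 18.9 CPM in ICH at day 3 and 0, 78.3 and 0.578 CPM in ICH at day 7, against 0.101, 0 and 0.105 CPM in sham. In SPF mice it was at 8.87, 0.335 and 4.23 CPM in ICH at day 3 and 19.8, 2.42 and 11.1 CPM in ICH at day 7, against 0.167, 0.141 and 0 CPM in sham. Day 3 and SPF day 7 lay above sham, and ABX day 7 overlapped it. None of these differences was called (edgeR adjusted p = 0.141 to 0.897).

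Msr1 (ENSMUSG00000025044), on chr8:39581685-39642673, encodes the class A scavenger receptor that takes up modified lipoproteins. It was at 45.4, 168 and 114 CPM in GF ICH at day 3 and 329, 233 and 311 CPM in GF ICH at day 7, against 2.54, 1.00 and 4.08 CPM in GF sham. GF ICH libraries lay above the shams, and day 7 above day 3. The log2 fold change was 5.42 ± 1.299 at day 3 (edgeR adjusted p = 0.352) and 6.84 ± 1.39 at day 7 (0.00253), a call kept in all 27 fits that left out 1 library. The transcript of Msr1 has 38.4% GC, at percentile 3.59 of tested genes. The part of GC balance in the Msr1 levels of GF ICH at day 7 was not tested.

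In ABX mice, Msr1 was at 106, 185 and 170.0 CPM in ICH at day 3 and 2.89, 201 and 26.6 CPM in ICH at day 7, against 0.214, 3.90 and 0.908 CPM in sham. Day 3 lay above sham by 6.52 ± 1.37 (edgeR adjusted p = 0.0532), and passed without ABX ICH day 7 replicate 1 or 2 (0.013 and 0.019) or SPF sham replicate 3 (0.0362). Day 7 overlapped sham through replicate 1 and was called, at 5.52 ± 1.305 (edgeR adjusted p = 0.0409), in 13 of 27 fits that left out 1 library, with 3.14 (0.181) without ICH replicate 2 and edgeR adjusted p up to 0.216. In SPF mice, Msr1 was at 167, 149 and 176 CPM in ICH at day 3 and 155, 40.4 and 92.9 CPM in ICH at day 7, against 1.14, 1.20 and 8.76 CPM in sham. Both days lay above sham and were not called (edgeR adjusted p = 0.169 and 0.479), although day 3 was without ABX ICH day 7 replicate 1 (0.0418).

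Gpnmb (ENSMUSG00000029816), on chr6:49036546-49070929, encodes a transmembrane glycoprotein of lysosomes that is a marker of lipid-laden macrophages. It was at 4.16, 16.2 and 5.76 CPM in SPF ICH at day 3 and 114, 117 and 164 CPM in SPF ICH at day 7, against 0, 0.176 and 0.402 CPM in SPF sham. The 3 groups did not overlap. On the log2 scale ICH was higher by 5.48 ± 1.73 at day 3 (edgeR adjusted p = 0.659) and 9.40 ± 2.04 at day 7 (0.102), which passed without ABX ICH day 7 replicate 2 (0.0221) or GF ICH day 7 replicate 2 (0.0338).

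In ABX mice, Gpnmb was at 10.9, 22.2 and 20.7 CPM in ICH at day 3 and 308, 0.613 and 247 CPM in ICH at day 7, against 0.428, 0.681 and 0.402 CPM in sham. In GF mice it was at 47.6, 146 and 72.6 CPM in ICH at day 3 and 81.6, 0.696 and 193 CPM in ICH at day 7, against 1.29, 0.327 and 2.59 CPM in sham. In both conditions replicate 2 of day 7 stood at the level of sham and the other 2 far above it. Gpnmb was called at day 7 in ABX mice, by 8.52 ± 1.97 (edgeR adjusted p = 0.0368), in 17 of 27 fits that left out 1 library, and in GF mice, by 6.02 ± 1.76 (0.024), in 24 of 27. In ABX mice the edgeR adjusted p reached 0.2, without sham replicate 3. In GF mice the call was lost without ICH day 7 replicate 3 (0.0699) or sham replicate 1 or 2 (0.06 and 0.0766).

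**Figure D3:**
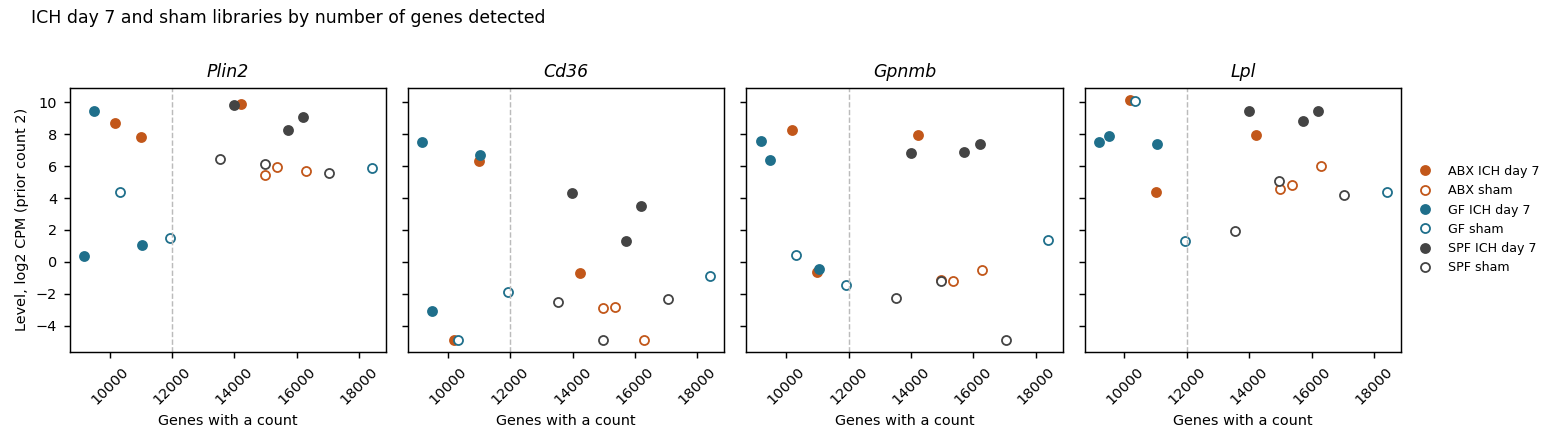
Level of Plin2, Cd36, Gpnmb and Lpl (y axis, log2 CPM with a prior count of 2) against the number of genes with a count (x axis) in the ICH day 7 libraries (filled) and the sham libraries (open). The dashed line marks 12000 genes. All 3 GF libraries of ICH day 7 lie left of it, those high and those low in Plin2 alike, and so does GF sham replicate 1, high in Lpl, while ABX ICH day 7 replicate 3, with Cd36 at 0.578 CPM, lies right of it.

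Markers of monocytes were higher in part of the ICH libraries. In ABX and SPF mice no marker of monocytes, border-associated macrophages or neutrophils was called at either day. Of 10 monocyte markers, 4 were called higher and 1 lower in GF ICH at day 7, where 1.7% and 12.7% of all genes were. Their summed level was 717 to 1910 CPM there, against 37.7 to 616 CPM in GF sham. It was 14.2 to 1031 CPM in ABX ICH at day 7, against 15.8 to 19.2 CPM in ABX sham, and 88.3 to 124 CPM in SPF ICH at day 3 and 60.8 to 212 CPM at day 7, against 20.4 to 39.3 CPM in SPF sham. In ABX and GF ICH at day 3 it was 66.2 to 138 and 51.0 to 293 CPM. The 9 markers of border-associated macrophages summed to 170 to 280 CPM in SPF ICH at day 3 and 122 to 325 CPM at day 7, against 5.12 to 122 CPM in SPF sham. In ABX mice they summed to 210.1 to 383 CPM in ICH at day 3 and 3.08 to 215 CPM at day 7, against 27.2 to 50.1 CPM in sham, and in GF mice to 64.0 to 192 CPM at day 3 and 72.3 to 220.2 CPM at day 7, against 42.4 to 559 CPM in sham, whose range holds both. Averaged over conditions, 2 of 10 monocyte and 0 of 9 border-associated macrophage markers were called higher at day 3, where 1.04% of all genes were. At day 7, 4 of 10 and 4 of 9 were called higher, where 3.72% of all genes were. On the same averages 5 of 11 microglia markers were called lower at day 3, where 0.267% of all genes were, and 4 of 11 at day 7, where 16.5% were. Of the border-associated markers, Lyve1 was at 0 in all 3 libraries of ABX sham, GF sham, SPF sham and SPF ICH day 3, and Cd163 in ABX ICH day 3 and SPF ICH day 3. Neutrophil markers, 10 genes, summed to 920 to 3803 CPM in GF ICH at day 7, against 203 to 895 CPM in GF sham, and overlapped sham in ABX and SPF mice, at 64.6 to 196 CPM at day 3 and 50.6 to 249 CPM at day 7 in ABX ICH, against 84.1 to 150.5 CPM in ABX sham, and at 74.3 to 163 CPM and 104 to 126 CPM in SPF ICH, against 42.9 to 253 CPM in SPF sham. Adipocyte markers, 6 genes, were all at 0 in 6 of the 9 groups and reached 4.29 CPM at most. The part of monocytes, border-associated macrophages and neutrophils in the levels of the 8 genes was not tested.

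Later samples were compared with earlier ones within ICH. None of 21 gene comparisons of day 7 with day 3 was called by edgeR, with 0.728% of all genes called in ABX, 15.3% in GF and 0% in SPF mice. At an unadjusted p under 0.05 there were 4, Fabp5 and Gpnmb in ABX mice and in SPF mice, where 5.9% and 2.64% of all genes were higher by that rule. DESeq2 called 1 and limma voom 2. Day 7 lay above day 3 without overlap for Fabp5 and Gpnmb in SPF mice, for Fabp5 in ABX mice and for Msr1 in GF mice, where 6.23%, 6.29% and 8.5% of genes did so. Fabp5 was 2.02 ± 0.85 higher in SPF and 1.76 ± 0.85 higher in ABX mice on the log2 scale, and Gpnmb 3.92 ± 1.59 and 3.37 ± 1.55 (edgeR adjusted p = 0.971 for both genes in SPF mice, and 0.238 and 0.232 in ABX mice). In GF mice Fabp5 was at 0.97 ± 0.83 and Gpnmb at 0.04 ± 1.42 (edgeR adjusted p = 0.385 and 1). For Gpnmb in ABX mice limma voom gave −0.08.

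On average over the 3 conditions, Fabp5 was 1.59 ± 0.49 higher at day 7 than at day 3 (edgeR adjusted p = 0.0268) and Gpnmb 2.44 ± 0.86 higher (0.0479), with 3.34% of genes called higher. These calls were kept in 21 and 8 of 27 fits that left out 1 library, with adjusted p up to 0.0588 and 0.0911. For Gpnmb limma voom gave 0.79 (adjusted p = 0.527). The other 5 genes were not called. Lpl was at −0.20 ± 0.69, Plin2 at −0.54 ± 0.70 and Msr1 at −0.12 ± 0.62 (edgeR adjusted p = 1, 0.681 and 1). Without replicate 1 of GF ICH day 7, Plin2 was 2.92 lower at day 7 (edgeR adjusted p = 0.000259).

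The microbiota comparisons gave no call. Over 42 gene comparisons of ABX or GF mice with SPF mice, edgeR called 0, with 3 at an unadjusted p under 0.05, and DESeq2 and limma voom called 2 each. Those 3 were Fabp5 in ABX sham, Lpl in GF sham and Gpnmb in GF ICH at day 3, where 2.21%, 4.2% and 2.85% of all genes were higher by that rule. Of all genes, 12.9% were called in GF against SPF ICH at day 7, 0.0854% in ABX against SPF ICH at day 7, 0.00569% in GF against SPF sham and 0% in the other 3. Lpl in GF sham, at 4.28 ± 1.36 (edgeR adjusted p = 0.671), rests on replicate 1: it was at −0.71 without that library and at −0.66 in limma voom. In sham, Fabp5 was at 9.59, 4.34 and 3.14 CPM in ABX mice, against 1.51, 0.475 and 0.715 CPM in SPF mice, without overlap, as for 4.58% of genes, and by 2.66 ± 0.88 on the log2 scale (edgeR adjusted p = 1, DESeq2 0.039).

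In GF ICH at day 3, Gpnmb was at 47.6, 146 and 72.6 CPM, against 4.16, 16.2 and 5.76 CPM in SPF ICH at day 3. The groups did not overlap, nor did those of Fabp3, as for 8.22% of genes. Gpnmb was 3.35 ± 1.55 higher on the log2 scale (edgeR adjusted p = 1). In GF ICH at day 7, Msr1 lay above SPF ICH at day 7, by 1.60 ± 1.10 (edgeR adjusted p = 0.307), as 7.19% of genes did, and Lpl lay below it, by −1.65 ± 1.22 (0.347), as 24.4% did. Averaged over both days of ICH, ABX minus SPF was between −0.40 ± 0.84 for Lpl and 1.55 ± 1.80 for Fabp3, and GF minus SPF between −1.22 ± 0.85 for Lpl and 2.21 ± 1.84 for Fabp3, with no call by edgeR or DESeq2 (limma voom 2 for GF) and 0% and 2.97% of all genes called. Plin2 in GF against SPF ICH at day 7 was at −1.35 ± 1.22 over all libraries (edgeR adjusted p = 0.448). Without GF ICH day 7 replicate 1, which leaves GF libraries at 2.05 and 1.28 CPM, it was at −8.47 (0.000375). SEs of this size leave differences of several fold in either direction undetected.

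**Figure D4:**
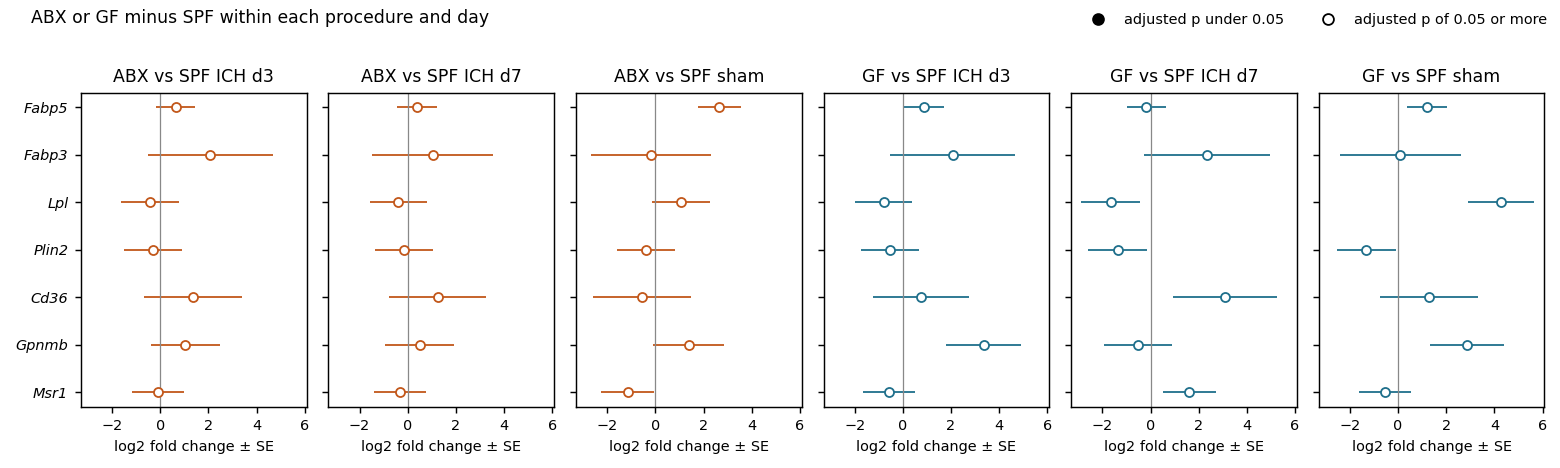
Log2 fold change of ABX or GF over SPF (x axis, bars ± SE of the edgeR fit) for the 7 tested genes in ICH day 3, ICH day 7 and sham. All points are open, since no adjusted p was under 0.05. The points farthest from 0 are Lpl in GF sham at 4.28, which is at −0.71 without GF sham replicate 1, Gpnmb in GF ICH day 3 at 3.35 and Cd36 in GF ICH day 7 at 3.10.

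Whether the response to ICH differed between conditions was tested by interaction terms, of which 1 of 28 was called. The response of Lpl at day 7 was 5.93 ± 1.81 log2 units smaller in GF than in SPF mice, a difference of −5.93 (edgeR adjusted p = 0.048), where 6.76% of all genes were called lower. This call rests on GF sham replicate 1, at 1076 CPM: without it the difference was −0.93 (edgeR adjusted p = 0.757).

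Related genes were read from lists of 9 to 13 tested genes. Cxcl16, a scavenger receptor and chemokine, was 2.80 ± 0.60 higher in ABX ICH at day 7 than in sham, at 807 against 116 CPM (edgeR adjusted p = 0.0208), 1 of 11 in its list. Apoc1, an apolipoprotein that inhibits lipoprotein lipase, was 5.66 ± 1.36 higher, at 101 against 2.00 CPM (0.0442), 1 of 9 in its list, and its call was lost in 21 of 35 alternatives. Averaged over conditions, Cd68, a lysosomal scavenger receptor of macrophages, was 1.10 ± 0.17 higher at day 3 (edgeR adjusted p = 0.00036), and Apoc2, the cofactor of lipoprotein lipase, 7.62 ± 1.47 higher (0.00865). Levels of Cd68 were 2599 CPM, against 1212 CPM in sham. Apoc2 was at 20.3 CPM at day 3 and 54.2 CPM at day 7, against 0.490 CPM in sham, so its fold changes rest on low sham levels. From day 3 to day 7 Cd68 changed by −0.95 ± 0.17 on average (edgeR adjusted p = 0.000764). In GF ICH at day 7 it was also below SPF ICH at day 7, by −1.43 ± 0.29 (0.00458). At day 7 on average, Apoc2 was 9.05 ± 1.56 higher (edgeR adjusted p = 0.000726), Apoc1 4.71 ± 0.75 (0.000297), Soat1, which makes cholesteryl ester for droplets, 2.04 ± 0.59 (0.0212), Acsl4, which activates long fatty acids, 2.70 ± 0.71 (0.0119) and Lipa, lysosomal acid lipase, 1.01 ± 0.26 (0.0106). On the same average 6 of 11 regulators and 5 of 13 droplet genes were lower, where 16.5% of all genes were and the median of all genes was −1.24, while over ABX and SPF mice alone 3 were higher, Cxcl16, Apoc1 and Apoc2, and 0 lower. No gene of the 6 lists was called in ABX or GF ICH at day 3 or in SPF ICH at either day.

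In GF ICH at day 7, genes of droplet turnover and of the regulators of lysosomes and lipids were called lower. Of 13 droplet genes 7 were lower and 0 higher, with a median log2 fold change of −5.95 (−6.72 with genes at 0 in a group set to a floor of 3 counts per library), beside −2.10 over all genes, among them Pnpla2, adipose triglyceride lipase, at 0.106 CPM against 248 CPM in GF sham (edgeR adjusted p = 0.00177), and Bscl2, seipin, at 0.469 CPM against 324 CPM (0.000984). Of 11 regulators 3 were lower, Mitf, Tfeb and Tfe3, at 0.0376, 0.0210 and 0.0501 CPM against 28.2, 183 and 28.5 CPM in GF sham (edgeR adjusted p = 0.00282, 0.00591 and 0.00725). Of 9 genes of fatty acid transport, Acsl4 was 4.57 ± 1.33 higher, at 75.7 against 3.19 CPM (0.0233). Slc27a4, a fatty acid transporter, was at 0 in all 3 ICH libraries, against an average of 59.7 CPM in GF sham. The GF sham libraries of Slc27a4 ranged from 0 to 174 CPM, so the groups overlapped. GF sham stood above the other shams for some of these genes: Tfeb averaged 11.8 CPM in ABX sham and 1.13 CPM in SPF sham, and Pnpla2 12.7 and 9.49 CPM. Mitf averaged 26.2 and 25.1 CPM, near the GF sham average alone. Its GF sham libraries ranged from 0.322 to 75.2 CPM, against 17.3 to 35.0 CPM in ABX sham and 23.2 to 26.4 CPM in SPF sham. The GF ICH day 7 libraries stand apart in detection and GC balance as given above, and 12.7% of all genes were called lower in the comparison. None of these falls was called in ABX or SPF mice, but some were also seen in ABX means at day 7. Mitf, Tfeb, Tfe3, Pnpla2 and Slc27a4 averaged 4.30, 0.388, 1.13, 1.42 and 0.329 CPM in ABX ICH. ABX sham averaged 26.2, 11.8, 18.5, 12.7 and 3.42 CPM. Bscl2 went the other way, at 385 ± 557 against 90.1 CPM (SD), and the median of all genes was −0.79. The part of detection, GC balance and mitochondrial reads in these falls was not tested.

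Outside the lists, the genes whose 9 group means were most like those of a member are given for the 4 members whose log2 CPM averaged at least 4, from 3593 coding genes. The measure is the root mean square difference of centred group means in log2 CPM. Fabp5 was nearest to the interferon-induced genes Ifi27l2a and Ifitm3, at 0.82 and 0.87, and to H2-Eb1, a class II chain, at 0.90. Lpl was nearest to Fgl2, Lgals1 and Cd74, at 0.68, 0.86 and 0.89. Plin2 was nearest to Smc2, Cdk1 and Il2rg, at 0.65, 0.81 and 0.83, and with a prior count of 0.5 Tfdp1 took the place of Cdk1. Msr1 was nearest to Ifi204, Lilrb4a and Fxyd5, at 1.04, 1.11 and 1.23. Without that limit on level, among the 7 tested members Cd36 and Msr1 were most alike, at 0.78, then Fabp5 and Gpnmb, at 1.13, and Plin2 and Msr1 least, at 2.76. Cd36 and Gpnmb averaged only 0.57 and 2.93 in log2 CPM, and Cd36 in sham was near the limit of detection. Transcripts of Cd36 and Msr1 both have 38.4% GC. All genes compared here share the 27 libraries and their depth.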

How the data were processed

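Whole-number counts per gene for 27 libraries were deposited by the authors as 1 table, per the file headers. The libraries were made with a low-input full-length cDNA kit (SMART-Seq v4) and sequenced in pairs, per the labels' protocols. Tools listed per the submitters' processing notes are edgeR, StringTie 1.3.4d, HISAT2 2.0.4 and cutadapt 1.9, with the build mm10. Annotation release, strand setting and mate counting are not given in the sources used here. The 8 genes and all lists were chosen with earlier results of these data known, and the genes named from lists are at most 4 called genes of a list in a comparison, lowest adjusted p first. Symbols and coordinates are from GENCODE M21 (52073 of 56691 identifiers matched).

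Low genes were removed by filterByExpr of edgeR 4.0.16 in R 4.3.3, which left 17573 genes with 99.9% of counts. A robust quasi-likelihood fit with TMM scaling (factors 0.476 to 1.31) over 9 group means gave 19 comparisons and 6 averaged ones added after the data were seen. P-values were adjusted by Benjamini-Hochberg over all tested genes, with a threshold of 0.05. The common biological coefficient of variation was 1.54. Alternatives were DESeq2 1.42.0, limma 3.58.1 voom, other scaling and filters, a replicate block, each comparison's groups alone, summed near copies and leaving out libraries.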

Additional observations from a re-analysis of the deposited data

Results flagged for a closer look

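The difference between GF and SPF mice in the response of Lpl to ICH at day 7, −5.93 ± 1.81 log2 units (edgeR adjusted p = 0.048), is listed because the test of the difference itself passed. Its size and its call rest on 1 of the 3 sham libraries of GF mice, at 1076, 2.48 and 20.5 CPM. Without the first of them the difference is −0.93 (edgeR adjusted p = 0.757). The call was lost in 25 of 34 alternatives, while the sign was kept in all of them.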

How the results depend on the processing

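Of 133 gene comparisons, the 10 called kept their sign in every alternative run, while 46 of the 123 not called changed sign in at least 1 and 33 were called in at least 1. For the 42 gene comparisons of ICH with sham, there were 9 calls, and 28 with DESeq2 (9 of the 9 kept), 16 with limma voom (5 kept), 3 with each comparison's groups alone (0 kept, so these are other gene comparisons) and 19 without the 7 libraries under 12000 detected genes, a fit that cannot give GF ICH day 7 (5 of the 5 it can give kept). There were 6 to 12 with 1 library left out. For day 7 against day 3, 0 calls became 1 with DESeq2 and 2 with limma voom, and were 0 to 1 with 1 library left out. ABX or GF against SPF gave 2 with DESeq2 and 2 with limma voom, and 0 to 1 with 1 library left out. The single difference of responses became 2 with DESeq2 and 0 with limma voom and with groups alone, and was 0 to 1 with 1 library left out. Without low-detection libraries the called term has no GF ICH day 7 library and could not be fitted. Averaged calls were 4 to 6 at day 3 and 5 to 7 at day 7 with 1 library left out. Shares of all genes called in the alternatives are not given here, and the causes of these changes were not tested.

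A replicate block gave 6 calls of ICH against sham and 0 differences of responses, and ended the averaged Cd36 call at day 3, the Lpl call over ABX and SPF mice at day 7 and both averaged calls of day 7 against day 3. Deviations of same-numbered libraries had a median correlation of 0.004 over 108 pairs, from −0.386 to 0.295. Libraries of different number had −0.00258 over 216 pairs, from −0.279 to 0.357. Pairing by replicate number was thus not seen across the groups, but a median over all pairs cannot exclude it within some of them.

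With 3 libraries a group and a biological coefficient of variation of 1.54, log2 SEs of 0.91 to 2.77 for ICH against sham limit what could be called, and Fabp4 and Cd36 in sham are near the limit of detection.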
